A study of Mus musculus with 24 samples.

Results

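The genes described here are 36 members of the actin cytoskeleton and of the SRF and YAP programmes that read its state, among them 4 actins, 17 actin-binding and contractile proteins, 7 regulators and 5 YAP targets. A member was taken as the brightest probe set whose only gene symbol in the array annotation was its own (Ctgf is also Ccn2, Cyr61 is also Ccn1, and Mkl1 is also Mrtfa). By that rule 35 of the 36 were measured among 14489 genes tested, and all 35 passed the filter on dim signals. Actg1, cytoplasmic gamma actin, lay only on 4 probe sets that carry several symbols and has no value. Myh9 and Tead1 each had a dimmer second probe set.

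The cells were MLO-Y4, a mouse line with osteocyte features, and RNA from them was hybridised to 24 arrays. Before the environments were parted, every culture had 30 min with an antibody at 37 °C and 5% CO2 in 35 mm dishes, at a 1:50 dilution. In the IgG arm the antibody was a rabbit IgG that is irrelevant to the cells. The E2 arm received Cx43(E2) at 28 µg/ml, which blocks hemichannels formed by connexin 43. Cells of each arm then stayed in the incubator (C) or at the 1g, 2g or μg (ug) position of a platform in a high magneto-gravitational field, so there were 8 groups of 3 arrays. No untreated culture without antibody was analysed here, and the length of the stay on the platform is not given in the sources used here. The titles number the arrays of a group 1 to 3, and the 4 arrays of 1 arm and 1 number are called a set, from IgG 1 to E2 3. No label says that the numbers are separate cultures, so p-values measure only the spread between these arrays, whose number limits the precision.

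Values are log2 intensities as deposited, with array medians between 6.48 and 6.65 and a median level of 8.41 over the genes tested. Of 8 osteocyte markers, connexin 43 (Gja1) lay between 11.37 and 12.0 and podoplanin (Pdpn) between 12.5 and 12.84. Dmp1, Mepe and Phex, defining genes of mature osteocytes, did not pass the filter, and Sost and Fgf23 had means of 7.07 and 7.04. The 5 smooth muscle markers Myh11, Des, Lmod1, Synpo2 and Myocd lay between 5.62 and 7.07, and their summary mean stayed between 6.3 and 6.65 in the 6 sets. The sets did not line up with their labels. Over all genes, fewer differed between E2 3 and IgG 1 or IgG 2 (18.0% and 7.63%), and between IgG 3 and E2 1 or E2 2 (18.5% and 15.1%), than in the other 5 pairs of sets across the arms (33.5% to 43.0%). Among the members this held for E2 3, with 3 and 1 of 35 called against IgG 1 and IgG 2, but not for IgG 3 against E2 1, with 14. The arms and sets follow the titles as deposited, and whether titles of number 3 are crossed between the arms cannot be settled from the labels, so each difference between arms, or between a set 3 and its arm, is one between arrays with those titles. Deviations from the group means correlated across genes at 0.195 to 0.812 for all 36 pairs of arrays of 1 arm and number. For the 48 pairs of the same number in different arms the correlation lay between -0.748 and -0.0141.

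Actin filaments carry load through the cell, and their assembly is governed by proteins that cap, cross-link or sever them. Unpolymerised actin holds the coactivator MRTF (Mkl1) out of the nucleus, so growing filaments free it to act with serum response factor (SRF) on actin and contractile genes. Tension along filaments also lets YAP enter the nucleus and act with TEAD factors on genes such as Ctgf, Cyr61 and Ankrd1, while the kinase LATS2 holds YAP back. Osteocytes are regarded as the load sensors of bone, and the study asked what the positions of the platform and the block of hemichannels do to them.

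Promoters of 5 members on which the set differences and the SRF programme turn are shown first, as the 250 bases before the gene start. They are from the RefSeq table of build GRCm38.p6, written 5′ to 3′ on the strand of the gene, in lower case with motif matches in capitals. Searched were the TEAD core CATTCC (its other strand reads GGAATG) and the SRF site known as the CArG box, on both strands of 250 bases before and 50 after the start. Ankrd1 (chr19:36119845-36120094, minus strand) holds the TEAD core at -210 and -123, counted to the first base of the match. Cyr61 (chr3:145649986-145650235, minus strand) holds it at -103, Crim1 (chr17:78199998-78200247, plus strand) at -79 and Acta2 (chr19:34255374-34255623, minus strand) at -146. Srf (chr17:46556163-46556412, minus strand) holds the CArG box at -82 and -62.
Ankrd1: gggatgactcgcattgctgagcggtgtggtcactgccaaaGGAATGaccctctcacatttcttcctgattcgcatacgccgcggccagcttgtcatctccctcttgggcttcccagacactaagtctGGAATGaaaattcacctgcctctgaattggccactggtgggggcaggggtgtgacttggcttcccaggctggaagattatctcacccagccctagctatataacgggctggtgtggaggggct
Cyr61: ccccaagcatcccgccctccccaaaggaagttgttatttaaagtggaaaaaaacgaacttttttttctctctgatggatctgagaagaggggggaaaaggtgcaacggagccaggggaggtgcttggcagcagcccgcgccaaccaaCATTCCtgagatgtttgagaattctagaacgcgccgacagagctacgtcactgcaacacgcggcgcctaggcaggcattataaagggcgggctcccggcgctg
Crim1: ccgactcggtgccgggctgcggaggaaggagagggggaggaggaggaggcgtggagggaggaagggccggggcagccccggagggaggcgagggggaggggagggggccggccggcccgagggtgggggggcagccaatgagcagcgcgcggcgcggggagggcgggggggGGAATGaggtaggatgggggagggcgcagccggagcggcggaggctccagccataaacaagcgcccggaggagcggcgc
Acta2: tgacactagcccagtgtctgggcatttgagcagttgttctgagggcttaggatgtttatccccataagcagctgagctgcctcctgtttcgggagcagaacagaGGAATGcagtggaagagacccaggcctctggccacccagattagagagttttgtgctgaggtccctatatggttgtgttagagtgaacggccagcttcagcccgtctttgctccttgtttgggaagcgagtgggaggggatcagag
Srf: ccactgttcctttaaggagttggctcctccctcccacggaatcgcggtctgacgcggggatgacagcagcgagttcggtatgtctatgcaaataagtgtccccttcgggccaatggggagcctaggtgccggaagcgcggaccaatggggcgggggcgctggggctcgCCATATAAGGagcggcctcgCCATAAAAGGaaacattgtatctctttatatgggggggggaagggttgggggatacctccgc

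Of the 36 members, 31 had an entry in that table (Actb, Actg2, Tagln, Tead1 and Ctgf did not). The TEAD core lay in 15 of the 31 promoters (48.4%), against 16.6% of all 27025 genes in the table. The CArG box lay in 6 of the 31 (19.4%, among them Actg1, Cnn2, Myl9, Vcl and Srf), against 1.81% of all genes. The CArG matches in capitals above read CC, then 6 bases of A or T, then GG. Acta2 holds ccctatatgg and ccttgtttgg, which have a c or a g among those 6 bases and were not counted. A gene outside the CArG count is therefore not shown to lack an SRF site. A match is a description of these letters and not a bound site.

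The first question was whether the members moved with the position on the platform, the load comparison of the study. No member was called, at an adjusted p below 0.05 (limma, Benjamini-Hochberg over all genes), in any of the 12 comparisons between environments within an arm, and neither was any of the 14489 genes (background 0.0% in each). At an unadjusted p below 0.05 there were between 0 and 2 members per comparison without a block. With the replicate number as a block within arm, again no member was called, and the largest share below that p was 9 of 35 members (25.7%, against 8.62% of all genes) for ug against 1g in the E2 arm. For ug against 2g in that arm it was 6 (17.1%, against 9.28%). In the IgG arm it was 7 (20.0%) for ug and for 2g against the incubator, against 10.9% and 17.6% of all genes. The median 95% interval of a member reached 0.21 to either side on the log2 scale, and the widest 0.56, and smaller differences lay within those intervals. In RNA from whole cultures, fewer cells with a transcript and less of it per cell cannot be told apart.

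At the ug position against the 1g position, the median change of the members was -0.04 in the IgG arm and -0.05 in the E2 arm, against -0.01 and 0.0 over all genes. In the IgG arm 25 of 35 members had a negative change, and in the E2 arm 27 of 35. Of the members, 16 were lower at ug in all 3 sets of the E2 arm and 2 were higher in all 3, where 12.9% and 10.9% of all genes were. In the IgG arm those counts were 4 lower and 3 higher, against 15.2% and 11.0% of all genes. The test of the difference between arms called no member (background 0.0%), with 0 members at an unadjusted p below 0.05. Most members also had a negative change against 1g at 2g. At 2g against 1g, 24 of 35 members were negative in each arm (medians -0.03 in the IgG arm and -0.02 in the E2 arm). At ug against 2g, 16 of 35 were negative in the IgG arm (median 0.01) and 27 in the E2 arm (median -0.03). In the E2 arm, 7 members were lower and 1 higher in all 3 sets at 2g against 1g (13.9% and 11.6% of all genes). At ug against 2g in that arm, 9 were lower and 2 higher in all 3 sets (16.8% and 10.4% of all genes). The share of all genes with a negative change was not counted.

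**Figure D1:**
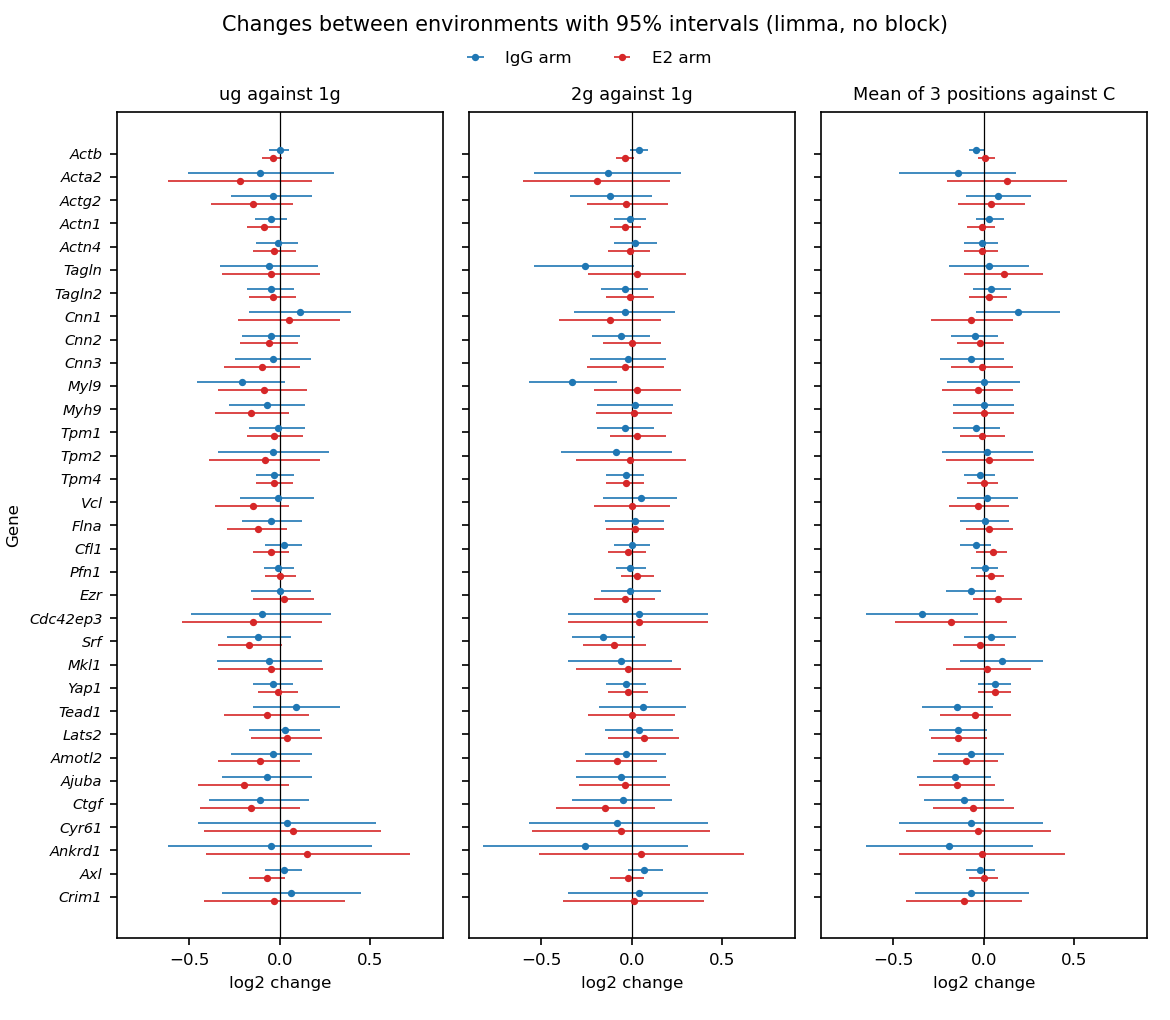
Log2 change (x axis) of 33 measured members (y axis, grouped by role) with its 95% interval from limma without a block, in the IgG arm (blue) and the E2 arm (red), for ug against 1g, 2g against 1g, and the 3 positions averaged against the incubator. The interval of Myl9 at 2g against 1g in the IgG arm lies below 0, that of Cdc42ep3 for the mean of the positions in the IgG arm does too, and no member passed the adjusted threshold.

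Among the actins, Actb, cytoplasmic beta actin, was the steadiest member. Arrays of the IgG arm read 13.74, 13.78 and 13.78 (sets 1, 2 and 3) in the incubator, 13.72, 13.73 and 13.7 at 1g, 13.76, 13.73 and 13.78 at 2g, and 13.73, 13.73 and 13.69 at ug. Arrays of the E2 arm read 13.69, 13.74 and 13.72 in the incubator, 13.75, 13.78 and 13.75 at 1g, 13.74, 13.74 and 13.68 at 2g, and 13.69, 13.75 and 13.7 at ug. All 24 values lay within 0.11, and although the ug and incubator arrays of the IgG arm did not overlap, the change was -0.05 ± 0.03 (standard error, as throughout; adjusted p = 0.949, limma). Non-overlap of 3 arrays with 3 was found for 13.0% of all genes in that comparison.

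Acta2, smooth muscle alpha actin and a classical MRTF-SRF target, had the widest range of the actins. Its values in the IgG arm were 7.91, 8.07 and 8.4 in the incubator, 7.82, 8.14 and 8.22 at 1g, 7.83, 7.76 and 8.19 at 2g, and 7.81, 7.93 and 8.12 at ug. Its values in the E2 arm were 8.29, 8.47 and 7.86 in the incubator, 8.6, 8.68 and 8.15 at 1g, 8.38, 8.59 and 7.88 at 2g, and 8.31, 8.39 and 8.07 at ug. The low values of the E2 arm were all in set 3 and the high values of the IgG arm were in set 3, so the environments overlapped widely. For ug against 1g the change was -0.11 in the IgG arm and -0.22 in the E2 arm. Actg2, smooth muscle gamma actin, ranged from 6.75 to 7.22.

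Of the 17 actin-binding and contractile members, Myl9, the regulatory light chain of non-muscle and smooth muscle myosin, had the smallest p of all members between positions of the IgG arm. It read 7.96, 8.15 and 8.01 in the incubator, 8.12, 8.3 and 8.23 at 1g, 7.86, 7.99 and 7.83 at 2g, and 8.08, 8.15 and 7.78 at ug. The 3 arrays at 2g lay below the 3 at 1g, a difference of -0.33 ± 0.12 with an unadjusted p of 0.0107 and an adjusted p of 1 (limma). Cultures of the E2 arm gave 8.31, 8.27 and 7.95 in the incubator, 8.14, 8.37 and 7.98 at 1g, 8.21, 8.32 and 8.05 at 2g, and 8.01, 8.18 and 8.02 at ug, where the positions overlapped. Non-overlap of 2g with 1g in the IgG arm was found for 4 members (Actb and Axl higher, Myl9 and Srf lower) and for 7.96% of all genes.

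Tagln, transgelin, a smooth muscle actin-bundling protein, moved the same way as Myl9 from 1g to 2g in the IgG arm (-0.26 ± 0.13, unadjusted p = 0.0545, limma). Like Myl9, Tagln did not pass the adjusted threshold. It read 7.6, 7.87 and 7.71 in the incubator, 7.69, 8.01 and 7.92 at 1g, 7.59, 7.72 and 7.52 at 2g, and 7.91, 7.97 and 7.55 at ug in that arm. Readings of the E2 arm were 7.99, 7.77 and 7.73 in the incubator, 8.05, 7.97 and 7.82 at 1g, 7.96, 8.06 and 7.89 at 2g, and 8.2, 7.73 and 7.76 at ug. Set 1 of the E2 arm held its highest value.

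Cnn1, smooth muscle calponin, a dim member with a mean of 6.64, was above its incubator array in 9 of 9 paired differences of the IgG arm (0.05 to 0.44) and below it in 7 of 9 in the E2 arm. Cultures of the IgG arm gave 6.27, 6.26 and 6.64 in the incubator, 6.33, 6.64 and 6.68 at 1g, 6.46, 6.38 and 6.71 at 2g, and 6.4, 6.7 and 6.88 at ug. In the E2 arm it read 6.86, 6.93 and 6.63 in the incubator, 6.96, 6.74 and 6.58 at 1g, 6.72, 6.64 and 6.57 at 2g, and 6.76, 6.85 and 6.83 at ug. The mean over the 3 positions was 0.19 above the incubator in the IgG arm and 0.07 below it in the E2 arm. Differences from 1 incubator array share that array and are not independent, and 6.69% of all genes were higher in 9 of 9 in the IgG arm.

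The cross-linkers and filament-turnover proteins kept within narrow limits. Actn1, alpha-actinin 1, spanned 11.86 to 12.05 and Flna, filamin A, 12.21 to 12.54. Cfl1, the severing protein cofilin, spanned 12.21 to 12.49. Pfn1, the monomer-binding profilin, spanned 12.8 to 12.99.

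Actn1 in the IgG arm read 11.96, 11.94 and 11.93 in the incubator, 11.97, 12.0 and 12.02 at 1g, 11.95, 11.97 and 12.04 at 2g, and 11.97, 12.01 and 11.86 at ug. Arrays of the E2 arm read 12.0, 11.92 and 12.05 in the incubator, 12.04, 12.01 and 12.0 at 1g, 12.02, 11.95 and 11.97 at 2g, and 11.95, 11.92 and 11.92 at ug. The ug arrays of the E2 arm lay below the 1g arrays (-0.09 ± 0.04, adjusted p = 1, limma), as the arrays of 5.76% of all genes were separated one way or the other. Flna at ug against 2g in the E2 arm changed by -0.14 ± 0.08 (adjusted p = 1).

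Flna in the IgG arm read 12.49, 12.51 and 12.38 in the incubator, 12.5, 12.52 and 12.42 at 1g, 12.5, 12.53 and 12.46 at 2g, and 12.5, 12.54 and 12.24 at ug. Its values in the E2 arm were 12.42, 12.21 and 12.53 in the incubator, 12.51, 12.42 and 12.42 at 1g, 12.51, 12.4 and 12.51 at 2g, and 12.45, 12.3 and 12.23 at ug. Its lowest values were single arrays of sets IgG 3, E2 2 and E2 3.

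For Pfn1 the IgG arm read 12.8, 12.82 and 12.93 in the incubator, 12.85, 12.85 and 12.87 at 1g, 12.82, 12.83 and 12.91 at 2g, and 12.86, 12.82 and 12.87 at ug. The E2 arm read 12.94, 12.95 and 12.81 in the incubator, 12.91, 12.97 and 12.91 at 1g, 12.99, 12.98 and 12.89 at 2g, and 12.95, 12.93 and 12.91 at ug. At 2g against the incubator in the E2 arm its change was 0.05 ± 0.04 (adjusted p = 1, limma), with overlapping arrays. The other members of this role, Actn4, Tagln2, Cnn2, Cnn3, Myh9, Tpm1, Tpm2, Tpm4, Vcl and Ezr, had no called change between environments either. The second probe set of Myh9, the heavy chain of non-muscle myosin IIA, read 7.51 and 7.58 in sets E2 1 and E2 2 but 6.61 in E2 3, where the brighter one read 11.93, 11.7 and 11.75.

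Cdc42ep3 (Borg2), a protein that acts on actin and septin filaments, was the one member called between environments in any fit. Readings of the IgG arm were 10.93, 10.69 and 10.91 in the incubator, 10.77, 10.37 and 10.43 at 1g, 10.8, 10.26 and 10.62 at 2g, and 10.38, 10.42 and 10.47 at ug. Cultures of the E2 arm gave 10.99, 10.81 and 10.47 in the incubator, 10.83, 10.73 and 10.3 at 1g, 10.81, 10.84 and 10.31 at 2g, and 10.76, 10.51 and 10.12 at ug. Within each set the incubator array was the highest, except in E2 2, where the array at 2g read 10.84 against 10.81.

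The mean of the 3 positions lay below the incubator by 0.34 ± 0.15 in the IgG arm (adjusted p = 0.461, limma without a block). With the replicate number as a block within arm the change was -0.34 ± 0.06 and was called (adjusted p = 0.0192), as were 102 of all genes (background 0.704%). Without any 1 of the 3 sets the blocked adjusted p in the IgG arm rose to between 0.126 and 0.296, and the call was lost. The change then lay between -0.37 and -0.31, from fewer arrays, so the loss does not show that the change rests on 1 set. In the E2 arm the change was -0.18 and was not called in either fit (adjusted p = 0.633 with the block), and the interval of that arm does not show that it stayed level.

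Over both arms, a comparison added after the data were seen, Cdc42ep3 changed by -0.26 ± 0.11 without a block (adjusted p = 0.759, limma; background 0.0%). With the block the change was -0.26 ± 0.04 (adjusted p = 0.0125; background 0.669%). Leaving out set E2 2, IgG 2 or IgG 3 ended that call (adjusted p of 0.0519, 0.0552 and 0.0649), with fewer arrays and changes of -0.28, -0.26 and -0.24. It was lower than its incubator array in 17 of 18 paired differences, as were 1.55% of all genes.

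Of the 7 regulators, none was called between environments, with or without the block. With the block, 1g against the incubator in the IgG arm called 7 of all genes (background 0.0483%) and 0 members, and 6 of the 35 members had an unadjusted p below 0.05 (limma; 17.1%, against 15.2% of all genes). Srf itself was lower at 2g than at 1g with no overlap in both arms (-0.16 in the IgG arm and -0.10 in the E2 arm), as well as lower at ug than at 1g in the E2 arm (-0.17). None of these passed the test (adjusted p = 1 in each, limma), and non-overlap in either direction was found for 7.96%, 4.8% and 5.76% of all genes. Its values in the IgG arm were 10.85, 10.95 and 10.8 in the incubator, 10.91, 11.02 and 11.06 at 1g, 10.85, 10.86 and 10.81 at 2g, and 10.94, 11.04 and 10.66 at ug. Arrays of the E2 arm read 10.92, 10.78 and 11.05 in the incubator, 10.93, 11.03 and 10.98 at 1g, 10.84, 10.91 and 10.9 at 2g, and 10.8, 10.71 and 10.92 at ug. At ug against 1g in the IgG arm Srf changed by -0.12 ± 0.08, with set 3 the only one that was lower, and without that set the value was 0.02.

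Lats2, the kinase that phosphorylates YAP and is itself a YAP target, was below its incubator array in 9 of 9 paired differences in the IgG arm (-0.25 to -0.04) and 8 of 9 in the E2 arm. Cultures of the IgG arm gave 10.69, 10.54 and 10.42 in the incubator, 10.52, 10.36 and 10.28 at 1g, 10.44, 10.46 and 10.37 at 2g, and 10.48, 10.44 and 10.31 at ug. Its values in the E2 arm were 10.52, 10.32 and 10.61 in the incubator, 10.33, 10.23 and 10.38 at 1g, 10.52, 10.19 and 10.43 at 2g, and 10.43, 10.31 and 10.31 at ug. Over both arms the mean of the positions was -0.14 ± 0.05 (adjusted p = 0.731, limma), or -0.14 ± 0.03 with the block (adjusted p = 0.0531), so it missed the threshold in both fits. Of all genes, 9.06% were lower in 9 of 9 in the IgG arm. Over both arms Lats2 was lower in 17 of 18, and 1.55% of all genes were lower in at least that many.

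Ajuba, a LIM protein that binds LATS kinases and dampens Hippo signalling, was lower in 9 of 9 paired differences of the E2 arm and 7 of 9 of the IgG arm. In the E2 arm 2.01% of all genes were lower in 9 of 9. Readings of the IgG arm were 9.92, 10.11 and 9.91 in the incubator, 9.94, 10.01 and 9.64 at 1g, 9.69, 9.9 and 9.81 at 2g, and 9.93, 9.97 and 9.49 at ug. Cultures of the E2 arm gave 10.12, 9.89 and 10.02 in the incubator, 10.1, 9.88 and 9.84 at 1g, 10.04, 9.8 and 9.85 at 2g, and 9.85, 9.7 and 9.67 at ug. The ug arrays of the E2 arm lay below its incubator arrays (-0.27 ± 0.12, unadjusted p = 0.0378, adjusted p = 1, limma). Non-overlap in either direction was found for 8.06% of all genes in that comparison. With the block, the mean of the positions over both arms was -0.16 ± 0.04 (adjusted p = 0.0966).

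Yap1 moved the other way by a small amount. It was above its incubator array in 18 of 18 paired differences (0.01 to 0.14), which 0.0966% of all genes were, and its mean change was 0.06 in each arm. In the IgG arm it read 10.11, 10.1 and 10.16 in the incubator, 10.14, 10.24 and 10.24 at 1g, 10.14, 10.12 and 10.27 at 2g, and 10.18, 10.13 and 10.19 at ug. Readings of the E2 arm were 10.09, 10.08 and 10.09 in the incubator, 10.2, 10.13 and 10.14 at 1g, 10.16, 10.09 and 10.15 at 2g, and 10.14, 10.14 and 10.17 at ug. Over both arms the change of 0.06 ± 0.03 was not called, without the block (adjusted p = 0.825, limma) or with it (adjusted p = 0.292), and Yap1 was singled out after its values were seen.

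**Figure D2:**
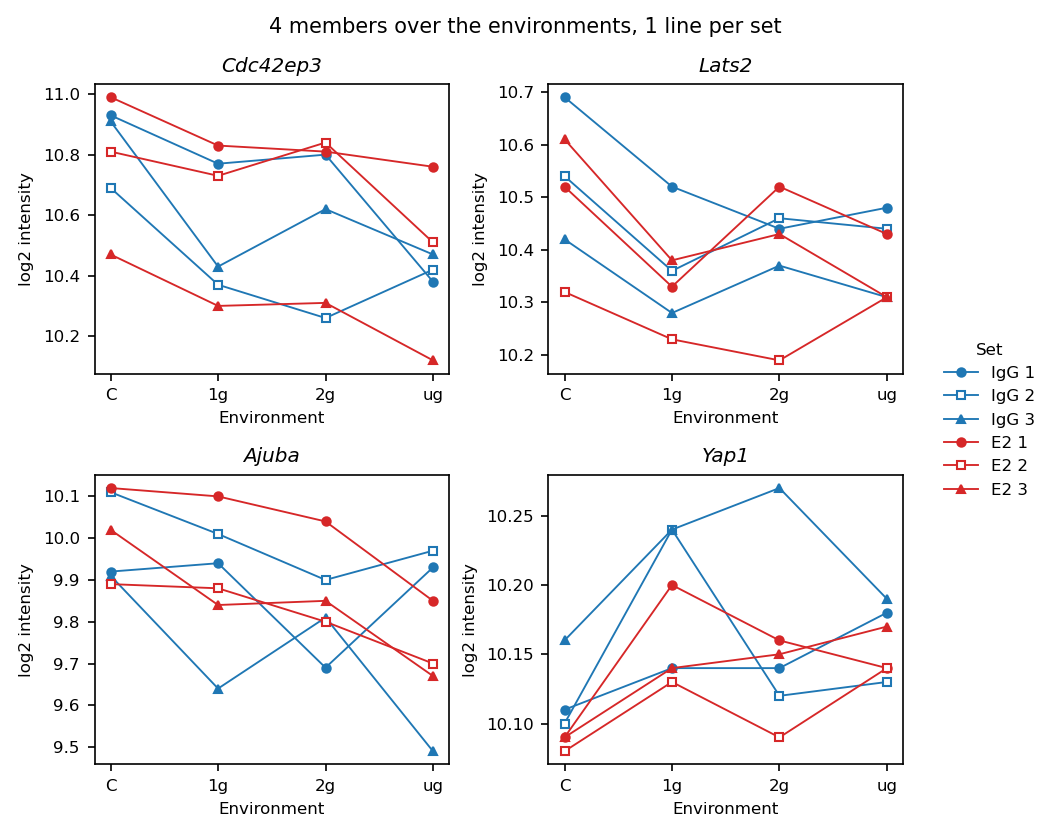
Log2 intensity (y axis) of Cdc42ep3, Lats2, Ajuba and Yap1 in the 4 environments (x axis), with 1 line for each set, blue for the IgG arm and red for the E2 arm. Cdc42ep3 falls from the incubator in 17 of 18 differences, with set E2 3 the lowest in every environment but 2g, and the Yap1 axis spans only 10.08 to 10.27.

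The remaining regulators lacked a common direction. Mkl1 ranged from 9.81 to 10.43, Tead1, a DNA-binding partner of YAP, from 9.84 to 10.46, and Amotl2, an angiomotin that retains YAP at junctions, from 10.58 to 11.07. Of the YAP targets, Ctgf, a matricellular growth factor, was below its incubator array in 9 of 9 differences in the IgG arm (mean -0.11). That held for 9.06% of all genes, and in the E2 arm Ctgf was below in 4 of 9. Cyr61, its matricellular relative with the widest range of the targets, gave a mean of -0.07 in the IgG arm and -0.03 in the E2 arm. Ankrd1, a nuclear ankyrin-repeat protein, gave -0.19 and -0.01. Axl, a receptor tyrosine kinase, kept between 11.95 and 12.13 on all arrays, and Crim1, a transmembrane protein that binds BMPs, gave -0.07 and -0.11.

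Further genes of the same pathways were also counted, from lists chosen with earlier results of these data known, so they are no independent check. No gene was called between environments, between arms or in the difference between arms, with or without the block where it could be fitted, among the 27 of 30 measured genes of actin filaments (such as the Arp2/3 subunits) and the 25 of 26 of the Hippo pathway and YAP targets. Of all genes, 2.92% were called for E2 against IgG in the incubator, at most 0.704% with the block, and 0.0% in the other comparisons. Having none called is therefore not particular to these lists.

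The second comparison was between the title sets, each taken as the mean of its 4 arrays with the environments fitted within arm. The 4 environments stand in for repeats here, so these tests describe the sets and not independent cultures. Within the IgG arm, set 3 had higher Acta2, Cnn1, Vcl and Actn4 and lower Tpm1, Cyr61, Ankrd1 and Crim1 than either other set. Other actin-binding and contractile members depended on the set compared. Against IgG 1, Tpm2 (0.16), Cnn2 (0.15) and Tagln2 (0.1) were also called higher. Against IgG 2, Actg2 (-0.23), Flna (-0.15) and Cnn3 (-0.12) were called lower, and Tagln (-0.22) and Myl9 (-0.18) were not called. None of the 5 smooth muscle markers was called in IgG 3 against either set. Within the E2 arm, set 3 had lower Acta2, Tpm2, Tagln2 and Cdc42ep3 and higher Ankrd1, Crim1, Cnn3 and Tpm1 than either other set. The directions of these changes were kept under quantile normalization.

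In set IgG 3 against set IgG 1, 7 members were higher (background 10.8%) and 6 lower (background 13.3%), 37.1% of the members against a background of 24.1% (limma). Of the actin-binding members 6 were higher and 1 lower, and of the 5 YAP targets 4 were lower and none higher. Against set IgG 2, 4 members were higher (background 10.6%) and 9 lower (background 15.3%), again 37.1% against a background of 25.9%, with 3 higher and 3 lower among the actin-binding members and 3 of the YAP targets lower. Set IgG 2 against set IgG 1 called 0 members (limma, background 0.0621%), with 4 at an unadjusted p below 0.05. Without the 2g arrays, or without the C arrays, the 13 calls against IgG 2 became 7.

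In set E2 3 against set E2 1, 4 members were higher (background 18.4%) and 12 lower (background 17.3%), together 45.7% against a background of 35.7%. Against set E2 2, 7 were higher (background 18.7%) and 8 lower (background 16.3%), together 42.9% against a background of 34.9%. Without the 2g arrays, these 16 and 15 calls became 10 and 8. Set E2 2 against set E2 1 called 1 member (background 2.6%), Lats2, at -0.19 ± 0.05 (adjusted p = 0.0453, limma). That call was lost when any 1 environment was left out (adjusted p of 0.0678 to 0.299).

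**Figure D3:**
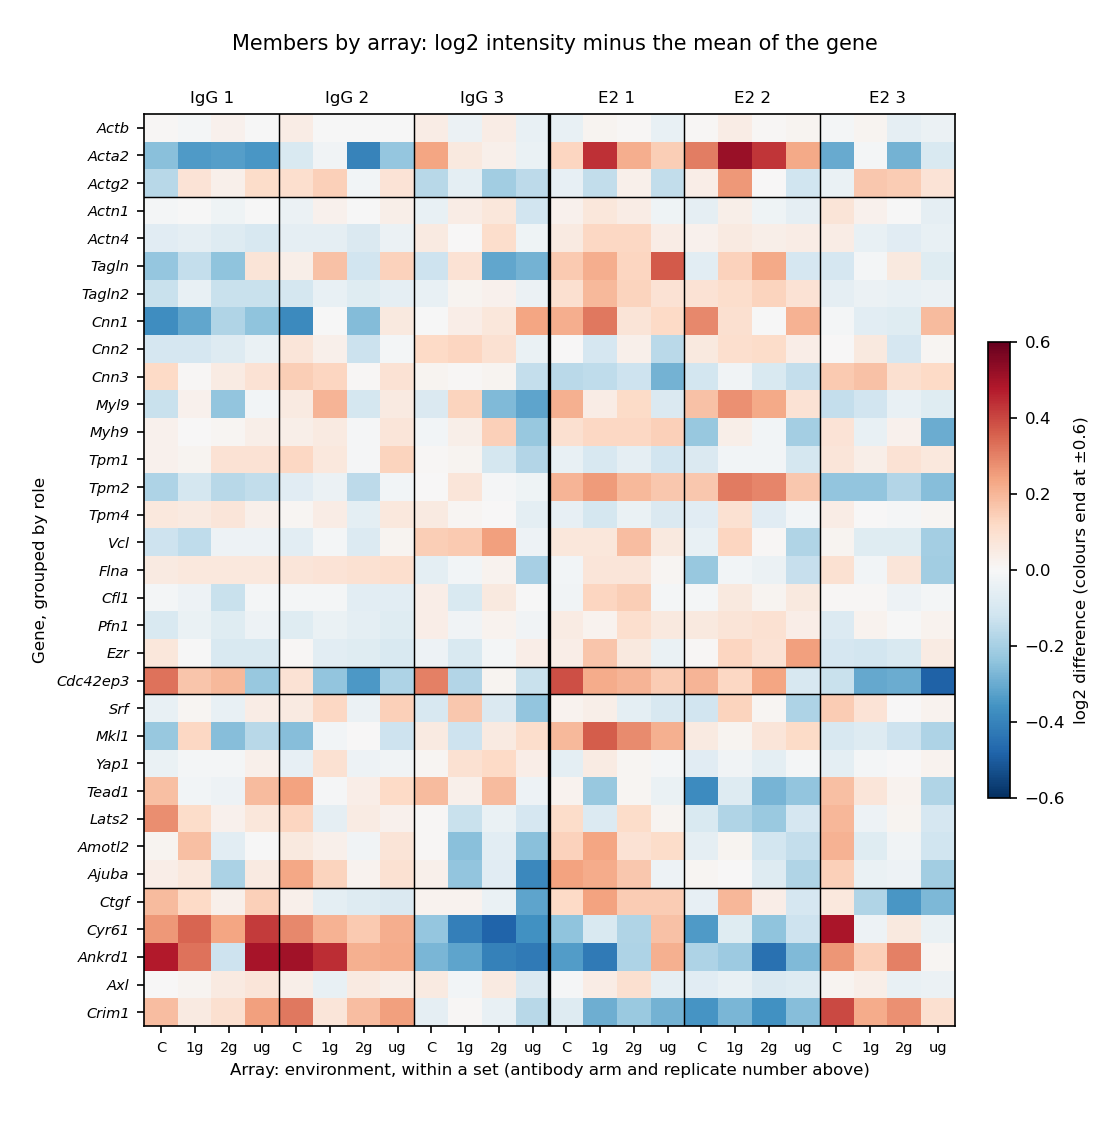
Each cell is the log2 intensity of 1 of 33 measured members (rows, grouped by role) on 1 of the 24 arrays (columns, grouped by set and then by environment) minus the mean of that gene, red for higher and blue for lower. Columns of a set look alike across environments, and Ankrd1 and Crim1 are high in IgG 1, IgG 2 and E2 3, except Ankrd1 at 2g in IgG 1, and mostly low in IgG 3, E2 1 and E2 2.

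Acta2, whose promoter is printed above, averaged 7.84 ± 0.04 (SD, n = 4 arrays) in IgG 1, 7.97 ± 0.17 in IgG 2 and 8.23 ± 0.12 in IgG 3. In the E2 arm it averaged 8.40 ± 0.14 in E2 1, 8.53 ± 0.13 in E2 2 and 7.99 ± 0.14 in E2 3. Set IgG 3 was thus above IgG 1 by 0.39 ± 0.07 (adjusted p = 0.000228, limma) and set E2 3 below E2 2 by 0.54 ± 0.07 (adjusted p = 3.19e-06). All 4 arrays of E2 3 lay below the other 8 of the arm, as those of 9.51% of all genes did.

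Cnn1 averaged 6.37 ± 0.08 (SD, n = 4) in IgG 1, 6.50 ± 0.21 in IgG 2 and 6.73 ± 0.11 in IgG 3, and set IgG 3 exceeded IgG 1 by 0.36 ± 0.08 (adjusted p = 0.00204, limma). In the E2 arm its sets averaged 6.82, 6.79 and 6.65, and no difference among them was called. Tpm2, beta tropomyosin, was the member with the largest share of its variation between sets, 77.4%. It averaged 10.33 ± 0.04 (SD, n = 4) in IgG 1, 10.42 ± 0.06 in IgG 2 and 10.50 ± 0.04 in IgG 3.

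Tpm2 in the E2 arm averaged 10.69 ± 0.04 (SD, n = 4), 10.72 ± 0.08 and 10.26 ± 0.04, so that set E2 3 was below E2 1 by 0.43 ± 0.04 (adjusted p = 2.94e-08, limma). Tpm1, alpha tropomyosin, went the opposite way to Tpm2 with set 3 of each arm. It was lower in IgG 3 than in IgG 1 (-0.12 ± 0.04, adjusted p = 0.0397) and higher in E2 3 than in E2 1 (0.14 ± 0.04, adjusted p = 0.00873).

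Among the calponins, Cnn3, the non-muscle form, averaged 11.15 ± 0.07 (SD, n = 4) in E2 1, 11.24 ± 0.05 in E2 2 and 11.47 ± 0.03 in E2 3, above E2 1 by 0.32 ± 0.04 (adjusted p = 2.27e-06, limma). In the IgG arm it was lower in IgG 3 than in IgG 2 (-0.12 ± 0.04, adjusted p = 0.0326). Vcl, the adhesion linker vinculin, was higher in IgG 3 than in IgG 1 (0.21 ± 0.06, adjusted p = 0.00672) and lower in E2 3 than in E2 1 (-0.18 ± 0.06, adjusted p = 0.0165). Tagln2, transgelin 2, fell in E2 3 against E2 1 by 0.17 ± 0.03 (adjusted p = 3.19e-05).

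Of the YAP targets, Cyr61 averaged 12.42 ± 0.08 (SD, n = 4) in IgG 1, 12.33 ± 0.05 in IgG 2 and 11.74 ± 0.11 in IgG 3, where all 4 arrays lay below the other 8 (10.4% of all genes did). Set IgG 3 was below IgG 1 by 0.68 ± 0.09 (adjusted p = 1.53e-05, limma), 0.622-fold. The sets of the E2 arm averaged 12.03 ± 0.19, 11.92 ± 0.12 and 12.23 ± 0.25, and E2 3 was above E2 2 (0.31 ± 0.09, adjusted p = 0.0136). Cyr61 in the IgG arm read 12.37, 12.4 and 11.88 in the incubator, 12.46, 12.32 and 11.7 at 1g, 12.35, 12.27 and 11.63 at 2g, and 12.53, 12.33 and 11.75 at ug. Cyr61 in the E2 arm read 11.87, 11.77 and 12.6 in the incubator, 12.02, 12.04 and 12.08 at 1g, 11.93, 11.87 and 12.17 at 2g, and 12.29, 11.99 and 12.07 at ug. The incubator array of E2 3, at 12.6, was the highest of the 24, and the other 3 arrays of that set lay between 12.07 and 12.17.

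Ankrd1, with 2 matches to the TEAD core in the window printed above, averaged 9.46 ± 0.29 (SD, n = 4) in IgG 1, 9.51 ± 0.15 in IgG 2 and 8.81 ± 0.07 in IgG 3. Set IgG 3 was below IgG 2 by 0.70 ± 0.11 (adjusted p = 6.56e-05, limma). In the E2 arm it averaged 8.98 ± 0.28, 8.89 ± 0.12 and 9.35 ± 0.13, and E2 3 was above E2 2 by 0.46 ± 0.11 (adjusted p = 0.00273). Single arrays departed from their sets, at 2g in IgG 1 (9.04) and at ug in E2 1 (9.38).

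Crim1 averaged 10.76 ± 0.09 (SD, n = 4), 10.82 ± 0.10 and 10.55 ± 0.07 in the 3 IgG sets and 10.40 ± 0.10, 10.30 ± 0.05 and 10.86 ± 0.12 in the 3 E2 sets. Set E2 3 was above E2 2 by 0.56 ± 0.06 (adjusted p = 3.68e-07, limma), and set IgG 3 below IgG 2 by 0.27 ± 0.06 (adjusted p = 0.00166). Ctgf did not share this pattern. It was lower in set 3 than in set 1 of both arms, by 0.20 ± 0.06 in the IgG arm (adjusted p = 0.0256) and by 0.35 ± 0.06 in the E2 arm (adjusted p = 0.000225). Cdc42ep3 likewise was lower in E2 3 than in E2 1 (-0.55 ± 0.07, adjusted p = 1.88e-06), with no called difference between the IgG sets.

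**Figure D4:**
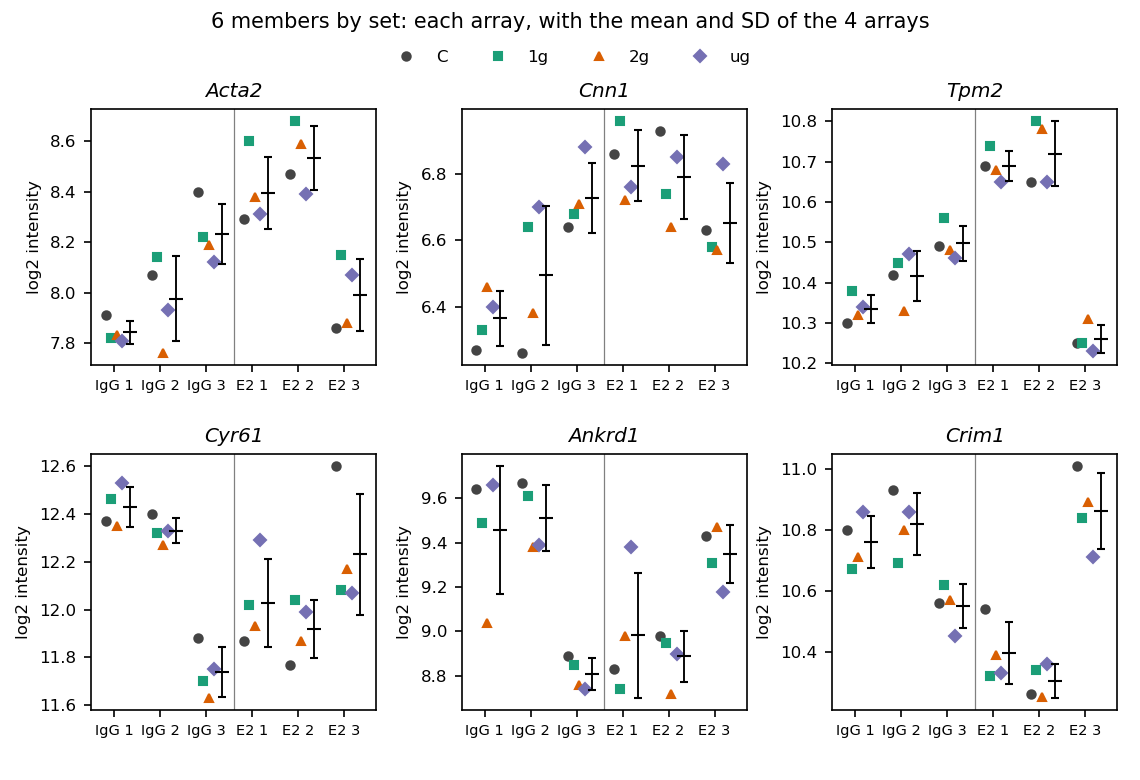
Log2 intensity (y axis) of Acta2, Cnn1, Tpm2, Cyr61, Ankrd1 and Crim1 on every array by set (x axis), with symbols for the environments and a bar for the mean and SD of the 4 arrays. Acta2 and Tpm2 are higher in IgG 3 than in IgG 1 and lower in E2 3 than in E2 1 and E2 2, and Ankrd1 and Crim1 show the reverse.

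Acta2, Tpm1, Ankrd1 and Crim1 were called in all 4 comparisons of a set 3 with another set of its arm. Actb, Actn1, Srf and Yap1 were called in none of the 15 comparisons between sets, and 9 members in none of the 6 within an arm (those 4, Tpm4, Cfl1 and Axl among them). Across the arms, set E2 3 differed from set IgG 2 in 1 member (Tpm2, -0.15 ± 0.04; background 7.63%) and from IgG 1 in 3 (background 18.0%), but from IgG 3 in 11 (background 33.5%). Set E2 1 differed from IgG 1 in 17 members (background 43.0%), from IgG 2 in 15 (background 41.7%) and from IgG 3 in 14 (background 18.5%). Set E2 2 differed from them in 19 (background 41.3%), 17 (background 39.7%) and 7 (background 15.1%). Without the 1g arrays the 14 calls of E2 1 against IgG 3 became 4, and without the 2g arrays the 7 of E2 2 against IgG 3 became 0. Comparisons that name the same set share its arrays.

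Other pathway genes also differed between sets. In IgG 3 against IgG 1, 13 of the 25 other Hippo and YAP genes were called (8 higher, 5 lower; 52.0%) and 8 of 27 of actin filaments (29.6%), against 24.1% of all genes. The 3 furthest from 0 were F3, the YAP target tissue factor (-0.66 ± 0.08, adjusted p = 1.6e-06, limma), Gsn, the severing protein gelsolin (0.58 ± 0.05), and Flnc, the muscle filamin (-0.56 ± 0.09). In E2 3 against E2 2, 20 of 25 (80.0%) and 8 of 27 (29.6%) were called, against 34.9% of all genes, with Gadd45a (0.71 ± 0.10) and Gsn (-0.58 ± 0.05) among the 3 furthest from 0.

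**Figure D5:**
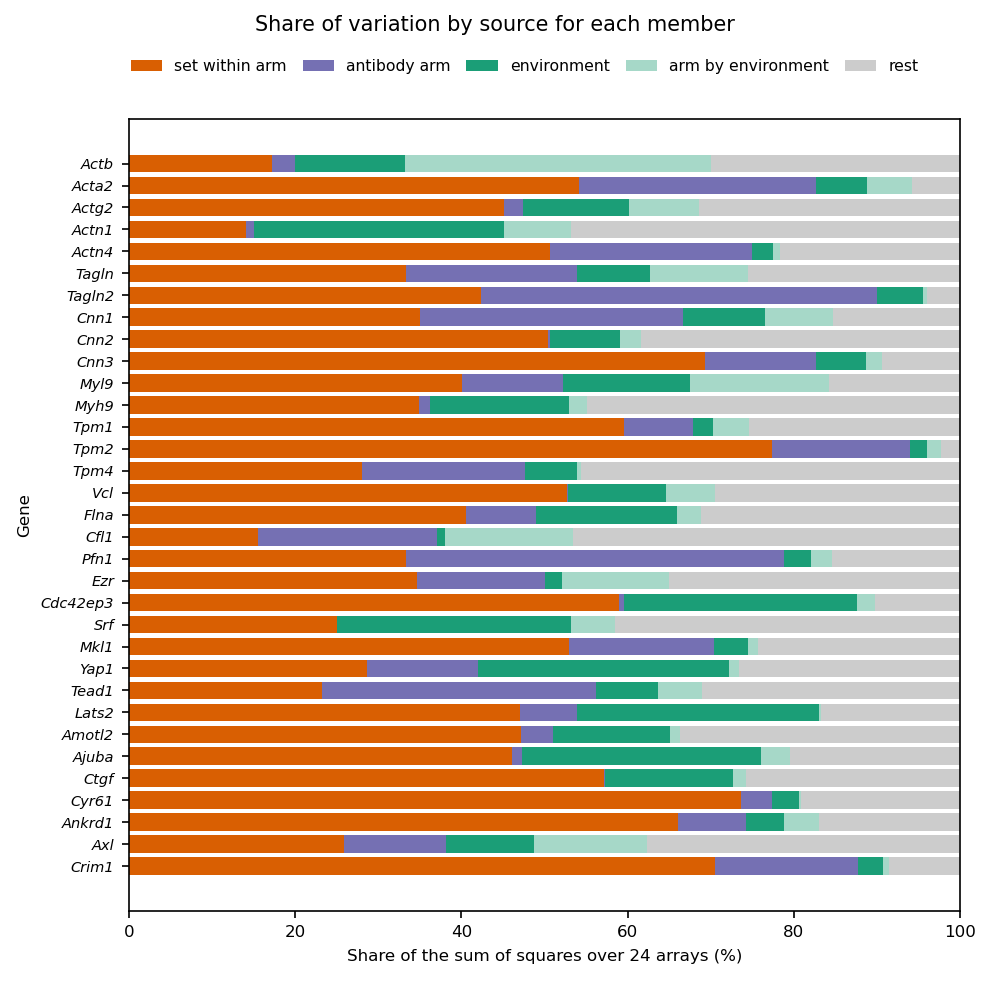
Share of the sum of squares over 24 arrays in percent (x axis) for 33 measured members (y axis), split by set within arm, antibody arm, environment, arm by environment and the rest. The set takes 77.4% for Tpm2 and 73.6% for Cyr61, and the environment at most 30.2%, for Yap1.

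Over the members, the set within arm took a median of 42.4% of the variation, against 28.2% over all genes and 17.4% of the degrees of freedom. The environment took a median of 9.82%, against 8.24% over all genes and 13.0% of the degrees of freedom. Yap1 at 30.2%, Lats2 at 29.1%, Ajuba at 28.7% and Cdc42ep3 at 28.0% were among the higher. The set was the largest of the 5 sources for 21 of 35 members.

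Some markers moved with the sets, and their part in the result was not tested. Gja1, the target of the antibody, was higher in IgG 3 than in IgG 1 (0.37 ± 0.04, adjusted p = 1.4e-06, limma) and lower in E2 3 than in E2 1 (-0.40 ± 0.04, adjusted p = 2.7e-07). Pdpn was lower in IgG 3 than in IgG 1 (-0.13) and higher in E2 3 than in E2 2 (0.17), and Cd44 was lower in E2 3 than in E2 1 (-0.29), all called. Pdpn was not called in E2 3 against E2 1 (0.04), and was lower in E2 2 than in E2 1 (-0.13, adjusted p = 0.0415, limma). Of the smooth muscle markers, Synpo2 (0.23, adjusted p = 0.0113) and Des (0.20, adjusted p = 0.0363) were higher in E2 3 than in E2 2. Against E2 1 neither was called (0.06 and 0.11). Of the 4 macrophage markers, Ptprc and Adgre1 did not pass the filter, while Csf1r, with a mean of 6.92, was lower in IgG 3 than in IgG 1 (-0.34, adjusted p = 0.00219, limma) and IgG 2 (-0.28, adjusted p = 0.00821). Cd68 was lower in IgG 3 than in IgG 1 (-1.03 ± 0.09, adjusted p = 2.95e-08, limma) and higher in E2 3 than in E2 1 (0.88 ± 0.09). The mean of those 4 markers lay between 6.38 and 6.57 on the arrays of IgG 1, IgG 2 and E2 3, and between 6.05 and 6.36 on those of the other 3 sets. The set means of Cd68 (9.12, 9.14 and 9.14 against 8.09, 8.26 and 8.21) and, by less, Csf1r split in this way. Those of Ptprc (5.01 to 5.23) and Adgre1 (4.5 to 4.64) did not. Csf1r was not called in E2 3 against E2 1 or E2 2 (adjusted p = 0.384 and 0.202, limma). Of the 5 skeletal muscle markers, Acta1 was higher in IgG 3 than in IgG 1 (0.66 ± 0.12, adjusted p = 0.000482), and Myod1, Myog, Ckm and Tnnt3 had means between 6.08 and 7.23. The 4 endothelial markers averaged between 5.97 and 6.29 in all sets.

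The third comparison, the E2 arm against the IgG arm in 1 environment, asked whether the hemichannel block altered these genes. With all 3 numbers, no member was called in the incubator, where 423 genes were (background 2.92%), nor at 1g, 2g or ug (background 0.0% in each). At an unadjusted p below 0.05 there were 4, 3, 4 and 2 members (11.4%, 8.57%, 11.4% and 5.71%), against 29.9%, 12.5%, 4.32% and 12.9% of all genes. Cnn1 came nearest, at 0.42 ± 0.13 in the incubator (adjusted p = 0.0657, limma).

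Each number was also left out in turn in both arms, an alternative chosen after the data were seen. Without number 1, or without number 2, no member and no other gene was called in any environment (limma, background 0.0% in each), with 0 to 2 members at an unadjusted p below 0.05. Without number 3, 13 members were called in the incubator (background 29.8%), 9 at 1g (background 25.1%), 9 at 2g (background 13.7%) and 10 at ug (background 23.9%). The sets of number 3 are those that ran against the arm difference of the other 2 numbers, so these calls describe the remaining arrays and are no test of the antibody. In them Acta2 was higher in the E2 arm by 0.39 to 0.69, Tpm2 by 0.25 to 0.40 and Tagln2 by 0.18 to 0.24 over the 4 environments. Cyr61 was between -0.56 and -0.29, and Crim1 between -0.52 and -0.35. Left out of the E2 arm alone, number 3 gave 2 members in the incubator and 2 at 1g.

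Differences between the arms in the same change of environment were tested as interactions. No member was called in any of the 5 (limma, background 0.0% in each), with 0 to 3 at an unadjusted p below 0.05.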

How the data were processed

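The 24 arrays of RNA from MLO-Y4 cells were read from the deposited table of log2 intensities, a unit judged from its values (2.36 to 14.06). Per the submitters' processing notes the authors used MAS5, with no role or version, and the scaling between arrays is not given in the sources used here, so a global shift between arrays cannot be seen. Of 35556 rows, 21789 had 1 gene symbol, 1621 several and 12146 were not listed, and 21698 matched RefSeq. Rows at or above the 40th percentile of their array (5.9 to 6.08) on at least 3 arrays were kept, and each gene was represented by its brightest row.

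The fit, in limma 3.58.1 (R 4.3.3), had 8 group means over all arrays and a variance trend. Tests were two-sided and p-values were adjusted after Benjamini and Hochberg over the 14489 genes of a comparison, at 0.05. Sets were compared in a fit of 6 set means with environments within arm. The replicate numbers pair arrays inside each arm, going by the correlations in the report and by no label, and a block of arm and number was an alternative (12 residual and 8.29 prior degrees of freedom, against 16 and 4.08). That block leaves no estimate of E2 against IgG inside 1 environment. The code was tested on simulated data.

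Members were named with values on every array where they were called between environments or arms with all arrays, had the widest range of their role or had 1 of the 2 smallest p-values of a comparison between environments, except those not reported here. Yap1 and the members named by their sets were chosen after their values were seen. Other pathway genes were named as the 3 largest set differences. The members and lists were chosen with earlier results of these data known. Rows without exactly 1 symbol were not used. Members counted in the totals but not named, and 1 list of other genes, are not reported here. Alternatives were quantile normalization, no filter, averaging the rows of a gene, no trend, only the arrays compared, other blocks, and each replicate or environment left out.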

Additional observations from a re-analysis of the deposited data

Results flagged for a closer look

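In 5 cases all 3 sets of the IgG arm moved one way and all 3 sets of the E2 arm the other way in the same change of environment, and the difference between arms was then tested. Differences are E2 minus IgG, with limma's adjusted p without a block. For Actb, 1g against the incubator gave a difference of 0.09 ± 0.04 (adjusted p = 0.974), and 2g against 1g gave -0.08 ± 0.04 (adjusted p = 1). For Cnn3, 1g against the incubator gave 0.08 ± 0.14 (adjusted p = 0.999). For Acta2, 2g against the incubator gave 0.27 ± 0.27 (adjusted p = 0.943). For Cnn1 the same comparison gave -0.29 ± 0.19 (adjusted p = 0.855). None passed the test, and none did with the replicate block within arm (adjusted p of 0.376 to 0.993). The share of all genes with such opposite sets was 3.79% for 1g against the incubator, 6.58% for 2g against the incubator and 2.86% for 2g against 1g.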

How the results depend on the processing

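Comparisons between environments and their interactions, 20 in all, had 0 members called in 324 of 331 alternatives. The other 7 gave 1 member each, Cdc42ep3: for the mean of the positions in the IgG arm with the replicate block within arm and with that block and quantile normalization, and for both arms with these and with the block when any of 3 sets was left out (0 to 1 over all left-out sets). In E2 against IgG, leaving out replicates gave 0 to 13 members in the incubator, 0 to 9 at 1g, 0 to 9 at 2g and 0 to 10 at ug; without number 3 of the E2 arm there were 2 in the incubator and 2 at 1g, and without number 3 of the IgG arm 1 in the incubator. The one value that turned was Srf at ug against 1g in the IgG arm, -0.19 without IgG replicate 1 and 0.02 without replicate 3, with or without the block; the cause was not tested. The block changed no other call.

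Between sets, with 1 environment left out (fewer arrays), the members called were 4 to 11 for E2 1 against IgG 3, 0 to 0 for E2 2 against E2 1, 0 to 6 for E2 2 against IgG 3, 10 to 18 for E2 3 against E2 1, 8 to 15 for E2 3 against E2 2, 2 to 3 for E2 3 against IgG 1, 0 to 1 for E2 3 against IgG 2, 0 to 1 for IgG 2 against IgG 1, 9 to 12 for IgG 3 against IgG 1 and 7 to 10 for IgG 3 against IgG 2. E2 2 against E2 1 also had 0 without the filter and 0 without the trend, E2 3 against IgG 1 had 6 with quantile normalization, E2 3 against IgG 2 had 2 with the mean of a gene's rows, and IgG 3 against IgG 1 had 8 without the trend. The causes were not tested. Precision is limited by 3 arrays per group, by unknown scaling and by low signal, as for Cnn1, whose mean of 6.64 lay near the filter.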
